A study of Mus musculus with 20 samples.

Results

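CXCR3-ligand chemokines are a family of 3 small secreted proteins, CXCL9, CXCL10 and CXCL11, which attract activated T cells and natural killer cells that carry the receptor CXCR3. Their genes lie side by side, and macrophages are known to switch them on in response to interferons and to microbial products through interferon regulatory factors and NF-κB. The members were the entries of the count table whose gene symbol was Cxcl9, Cxcl10 or Cxcl11. Of these 3 genes, Cxcl9 and Cxcl10 were found among the 21963 gene entries and both passed the filter on low counts with 11707 genes in all, while Cxcl11 was not analysed here.

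RNA from mouse bone marrow-derived macrophages (BMDMs) was sequenced in 20 libraries, each labelled as a separate biological replicate. WT macrophages were untreated (n = 4), given zymosan for 3 h (n = 5), or given zymosan for 3 h with BAPTA-AM (n = 4), and *Mcu*-/- macrophages were untreated (n = 4) or given zymosan for 3 h (n = 3). Zymosan, a yeast cell wall preparation, was used at 2 particles per cell, and BAPTA-AM, a Ca2+ chelator that enters cells, at 10 µM. *Mcu* encodes the pore of the mitochondrial Ca2+ uniporter. According to the methods of the study, the mice were 15 to 25 weeks old. The *Mcu*-/- cells are described in the text of the study as coming from mice with a floxed *Mcu* allele and Cre driven by *Cx3cr1*, a gene of monocytes and macrophages, so that deletion depends on the activity of that promoter. The cells were grown in medium conditioned by L929 cells, a source of macrophage growth factor, and no untreated group with BAPTA-AM alone was analysed here. Total counts per library ran from 14.4 to 19.3 M (1 M = 1000000 counts) in WT untreated, 20.3 to 22.4 M in WT zymosan, 17.4 to 21.7 M in WT zymosan with BAPTA-AM, 21.9 to 22.8 M in *Mcu*-/- untreated and 20.1 to 24.0 M in *Mcu*-/- zymosan libraries. Levels are given as CPM, counts per M of the TMM-scaled library size, and differences as log2 fold changes of edgeR's quasi-likelihood fit to all 20 libraries, called at a Benjamini-Hochberg adjusted p under 0.05 over all genes tested.

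The targeted gene was lower in every *Mcu*-/- library than in every WT library. *Mcu* was at 8.36, 6.49, 7.66 and 6.84 CPM in WT untreated, 7.23, 6.93, 6.38, 6.57 and 6.10 CPM in WT zymosan, and 9.55, 6.99, 7.43 and 7.79 CPM in WT zymosan with BAPTA-AM libraries. It was at 2.85, 3.77, 2.63 and 4.05 CPM in *Mcu*-/- untreated and 3.65, 3.62 and 3.98 CPM in *Mcu*-/- zymosan libraries, so that part of the counts remained. Counts were per gene and do not show which exons these reads came from, so whether intact *Mcu* RNA remained was not tested. The paper reports that mitochondrial calcium uptake was nearly abolished in *Mcu*-/- macrophages. The log2 fold change of *Mcu* between genotypes was −1.14 (edgeR adjusted p = 0.000163, SE 0.13) untreated and −0.82 (edgeR adjusted p = 9.61e-05, SE 0.14) with zymosan. In a fit of the untreated groups alone the first of these was nearly unchanged at −1.15 (SE 0.16) but not called (edgeR adjusted p = 0.0979, against 1.03e-12 at the other end of the alternatives).

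The libraries carried macrophage RNA, but 4 of the 7 *Mcu*-/- libraries stood apart in it. The 8 macrophage markers, led by *Lyz2*, summed to 13360 to 13740 CPM in WT untreated, 16080 to 16390 in WT zymosan and 14320 to 14560 in WT zymosan with BAPTA-AM libraries. In untreated *Mcu*-/- macrophages they summed to 14420, 14780 and 14650 CPM in replicates 1 to 3 and to 8556 in replicate 4, and in the *Mcu*-/- zymosan libraries to 10410, 10770 and 10730 CPM. *Lyz2*, the lysozyme of myeloid cells, was at 7824, 8390, 8130 and 2823 CPM in the 4 untreated *Mcu*-/- libraries and at 3217, 3280 and 3229 CPM in the 3 zymosan libraries. *Cd68*, a lysosomal membrane protein of macrophages, went the other way, with 259, 251, 256 and 971 CPM against 1142, 1175 and 1158 CPM. Replicate 4 thus sat beside the zymosan libraries of its genotype in both genes, and far from its own group. *Adgre1*, *Csf1r*, *Itgam*, *Mertk* and *Fcgr1* also lay nearer those zymosan libraries, but *Cd14* lay nearer its own group. *Cd14* was at 198.3 CPM in replicate 4, 235.9 to 241.5 in replicates 1 to 3 and 1333 to 1424 CPM in the *Mcu*-/- zymosan libraries. Of 11707 genes, 1260 differed over 2-fold from the WT untreated mean in replicate 4 and 9, 11 and 16 in replicates 1 to 3. Of the 7272 genes called between genotypes with zymosan, replicate 4 was shifted the same way in 86.7%, replicates 1 to 3 in 50.8, 49.8 and 50.9%, and the 4 WT untreated libraries, each against the other 3, in 51.5, 49.7, 50.6 and 48.1%. Since no zymosan library of *Mcu*-/- macrophages resembled replicates 1 to 3, genotype and whatever set these 4 libraries apart cannot be told apart in the comparison of genotypes with zymosan. Within *Mcu*-/- macrophages replicate 4 is the only untreated library of this kind, so without it zymosan and this state coincide, and neither the zymosan response of these macrophages nor its difference from WT can be told apart from it. Selected values without replicate 4 are given below, as a description of how far the results rest on this library.

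Most markers of T cells and natural killer cells were at the detection limit, taken as at most 3 counts in every library of a group, while several markers of other cell types were above it. *Cd3e*, *Cd3d*, *Cd3g* and *Cd8a* of T cells, and *Ncr1*, *Gzmb*, *Prf1* and *Eomes* of natural killer cells, had at most 3 counts in each of the 20 libraries. The 6 T cell markers summed to 1.12 to 1.58 CPM in WT untreated, 1.81 to 3.42 in WT zymosan, 1.58 to 2.54 in WT zymosan with BAPTA-AM, 1.14 to 3.61 in *Mcu*-/- untreated (3.61 in replicate 4) and 3.84 to 4.23 CPM in *Mcu*-/- zymosan libraries, nearly all of it *Cd4* and *Lck*. The 5 natural killer markers summed to at most 0.594 CPM in a library. The 6 neutrophil markers, led by *S100a9*, summed to 1.97 to 4.96 CPM in the 13 WT libraries, 1.66 to 2.49 in untreated *Mcu*-/- replicates 1 to 3, 0.159 in replicate 4 and 0.396 to 0.530 in the *Mcu*-/- zymosan libraries, with *Ly6g*, *Mpo* and *Elane* at 3 counts or less in each library. The 5 dendritic cell markers were led by *Xcr1* and summed to 0.81 to 1.27 CPM in WT untreated, 9.15 to 10.1 in WT zymosan, 5.73 to 7.31 with BAPTA-AM, 0.782 to 1.21 in *Mcu*-/- untreated and 10.8 to 11.9 CPM in *Mcu*-/- zymosan libraries, nearly all of the change being *Xcr1* (0.613 to 9.03 CPM on average from WT untreated to WT zymosan), while each of the other 4 averaged at most 0.355 CPM in every group. The 4 B cell markers, with *Cd79a* or *Ms4a1* highest on average depending on the group, summed to at most 3.15 CPM. The 3 endothelial markers, mostly *Pecam1*, summed to 49.9 to 56.55 CPM in WT untreated, 42.5 to 46.9 in WT zymosan and 24.2 to 26.6 in *Mcu*-/- zymosan libraries. In WT zymosan with BAPTA-AM libraries they summed to 36.0 to 37.9 CPM, below each WT zymosan library. There *Pecam1* averaged 34.9, *Cdh5* 0.521 and *Vwf* 1.60 CPM. From WT zymosan to *Mcu*-/- zymosan libraries the members moved in opposite directions, *Pecam1* from 41.9 to 15.3 CPM on average, *Cdh5* from 1.37 to 7.05 and *Vwf* from 1.36 to 3.32. The 4 fibroblast markers, mostly *Col1a1* and *Col1a2*, summed to at most 5.00 CPM in the 13 WT libraries, to 1.44, 1.64, 0.621 and 25.3 CPM in untreated *Mcu*-/- replicates 1 to 4, and to 49.3, 40.5 and 46.4 CPM in the *Mcu*-/- zymosan libraries. The part of these markers in the chemokine values below was not tested, and in bulk RNA more cells of a type and more RNA per cell cannot be told apart.

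The 3 genes form a cluster on the minus strand of chromosome 5. In GENCODE M21, an annotation of GRCm38 (mm10), Cxcl9 (ENSMUSG00000029417) spans chr5:92321347-92328079, Cxcl10 (ENSMUSG00000034855) chr5:92346638-92348889 and Cxcl11 (ENSMUSG00000060183) chr5:92359544-92365485. Cxcl9 and Cxcl10 are annotated as protein coding and Cxcl11 as a polymorphic pseudogene, a class with an open reading frame in some mouse strains only. Of the table's entries, 98.5% matched a protein coding gene. *Art3*, which encodes an ADP-ribosyltransferase-like protein, spans chr5:92331827-92414628 on the plus strand and covers both Cxcl10 and Cxcl11. Its exons share 133 bases with those of Cxcl10, and as a strand setting for the counting was not given in the sources used here, reads of these bases could belong to either gene.

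**Figure D1:**
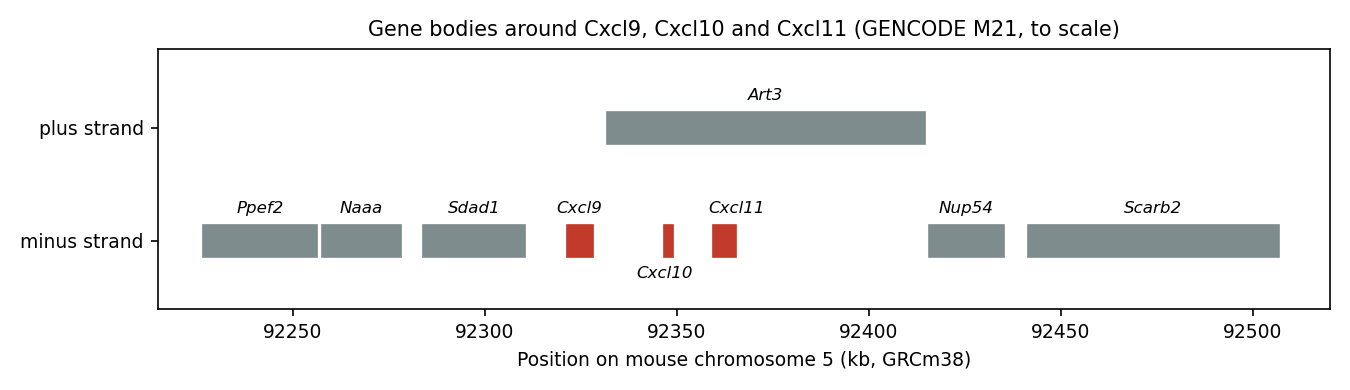
Gene bodies on mouse chromosome 5 around the 3 chemokine genes, drawn to scale on GRCm38 with position in kb on the horizontal axis and strand on the vertical axis, the chemokine genes in red and their neighbours in grey. Cxcl9, Cxcl10 and Cxcl11 lie in a row on the minus strand, and *Art3* on the plus strand overlaps Cxcl10 and Cxcl11.

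In untreated WT macrophages Cxcl9 RNA was at the detection limit and Cxcl10 RNA was low, and zymosan raised both by a wide margin. Cxcl9, a chemokine classically induced by interferon-γ, had 1, 2, 1 and 0 counts in the 4 untreated libraries and 348, 400, 438, 472 and 393 counts in the 5 zymosan libraries. On the scaled level this was 0.0426 ± 0.0346 CPM (SD, n = 4) against 22.1 ± 2.31 CPM (SD, n = 5). The ratio of the summed and scaled counts was 487.5, with an exact 95% interval for counting error alone of 190 to 1791 because it rests on 4 untreated counts. Cxcl10, induced by type I and type II interferons alike, had 108, 84, 105 and 85 counts untreated (4.36 ± 0.541 CPM, SD, n = 4) and 90881, 99166, 97406, 100974 and 93454 counts with zymosan (5196 ± 205 CPM, SD, n = 5). Each zymosan library lay far above each untreated library for both genes. The log2 fold change was 10.22 for Cxcl10 (edgeR adjusted p = 1.85e-21, SE 0.12), and Cxcl9 was called too (edgeR adjusted p = 2.00e-17), with a fitted value that depends on the prior count. Both tested members were thus called, in a comparison in which 69.1% of all genes were. In exact two-sided permutation tests of log2(CPM + 1), each gene reached the smallest p that 5 against 4 libraries allow (exact p = 0.0159).

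**Figure D2:**
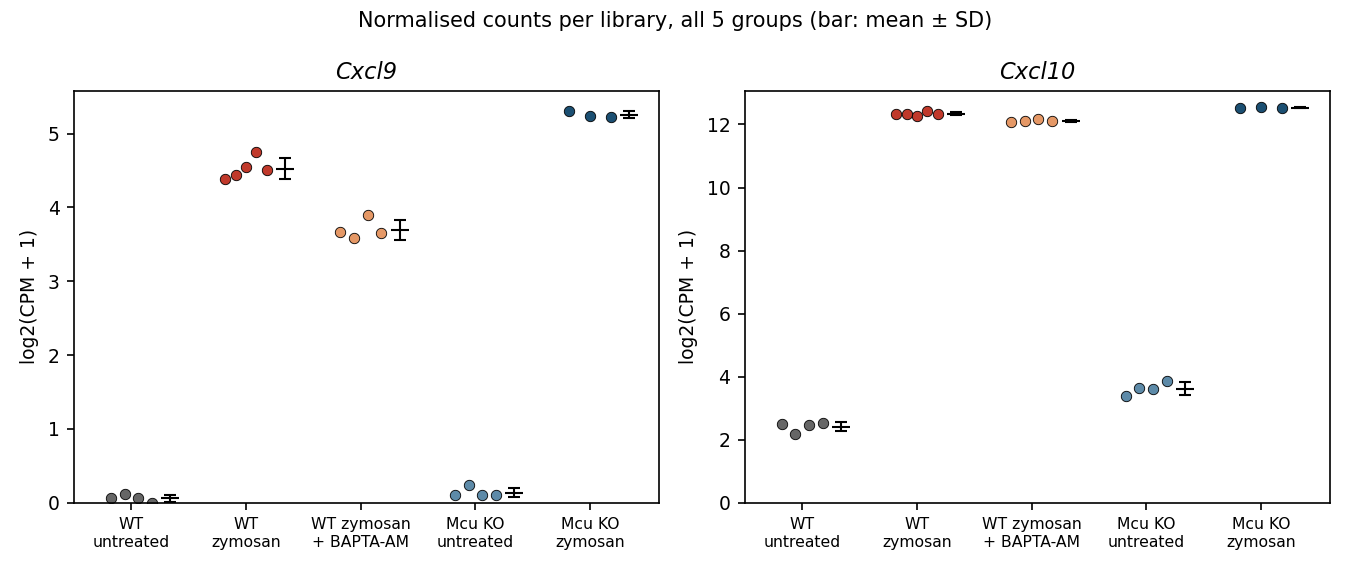
Levels of Cxcl9 (left) and Cxcl10 (right) in each of the 20 libraries, as log2(CPM + 1) on the vertical axis and by group on the horizontal axis. Points are libraries and bars are mean ± SD. The untreated libraries sit near 0 for Cxcl9 and between 3.56 and 13.5 CPM for Cxcl10, and all 12 zymosan libraries lie well above them.

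Per length, Cxcl10 was one of the most abundant RNAs of stimulated macrophages. Divided by the 2.25 kb of its merged exons, its mean level in WT zymosan libraries was 2307 CPM per kb, rank 12 of 11592 genes with a length, against rank 8011 untreated (1.94 CPM per kb). Cxcl9, with 3.02 kb of merged exons, was at 7.33 CPM per kb (rank 4538) with zymosan and at 0.0141 CPM per kb (rank 11509) untreated. Cxcl10 took 0.435 to 0.480% of all counts in the WT zymosan libraries. The ratio of Cxcl10 to Cxcl9 levels per kb was 317 ± 25.5 (SD, n = 5) in WT zymosan, 500.1 ± 40.3 (SD, n = 4) in WT zymosan with BAPTA-AM and 213 ± 7.83 (SD, n = 3) in *Mcu*-/- zymosan libraries. The 3 ranges did not overlap, so that the chemokines moved by unequal amounts between these groups.

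The order of group means was the same for both chemokines. From highest to lowest it was *Mcu*-/- zymosan, WT zymosan, WT zymosan with BAPTA-AM, *Mcu*-/- untreated and WT untreated. Cxcl9 stood at 37.2 ± 1.25 (SD, n = 3), 22.1 ± 2.31 (SD, n = 5), 12.01 ± 1.27 (SD, n = 4), 0.101 ± 0.0512 (SD, n = 4) and 0.0426 ± 0.0346 CPM (SD, n = 4). Cxcl10 stood at 5909 ± 59.3 (SD, n = 3), 5196 ± 205 (SD, n = 5), 4456 ± 112 (SD, n = 4), 11.4 ± 1.7 (SD, n = 4) and 4.36 ± 0.541 CPM (SD, n = 4). Neighbours in this order did not overlap in their libraries, with the exception of the untreated groups for Cxcl9, whose difference lay within the spread.

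**Figure D3:**
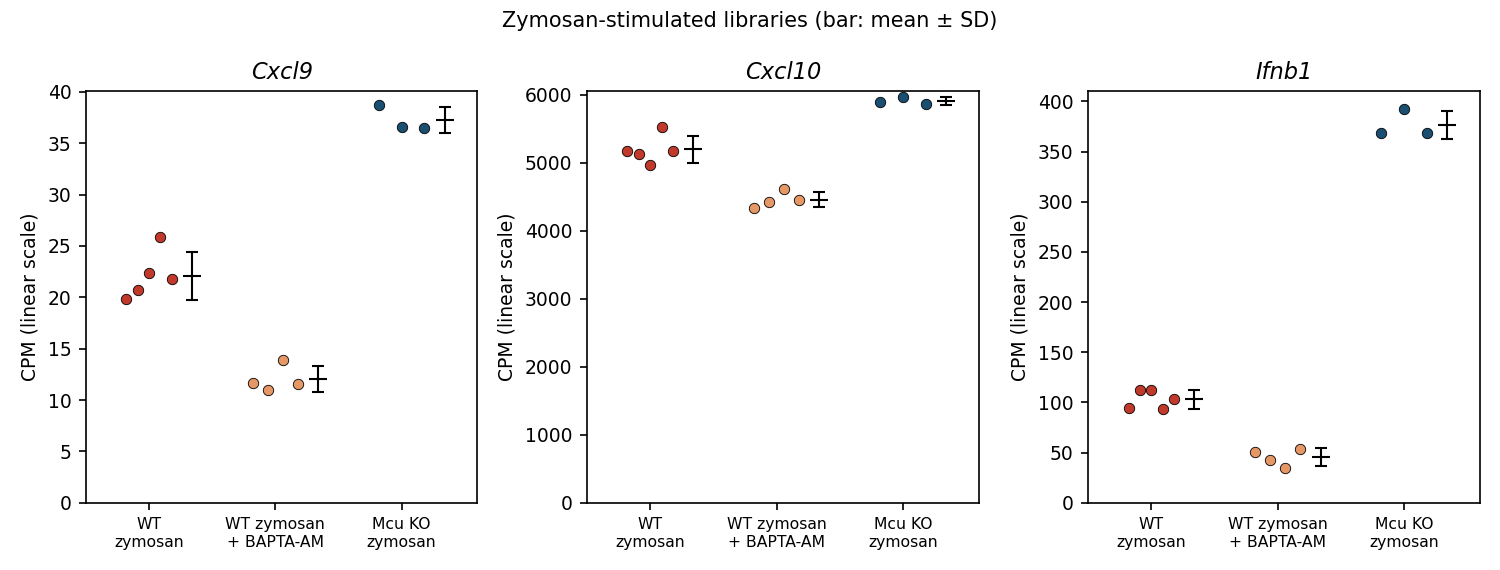
Levels of Cxcl9, Cxcl10 and *Ifnb1* in the 12 zymosan libraries, in CPM on a linear vertical axis that starts at 0, by group on the horizontal axis. Points are libraries and bars are mean ± SD. In all 3 genes the *Mcu*-/- libraries lie highest and the libraries with BAPTA-AM lowest, with the narrowest separation for Cxcl10.

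Whether intracellular Ca2+ bears on the response was addressed by loading WT macrophages with BAPTA-AM. With the chelator Cxcl9 RNA fell well below its zymosan level, while Cxcl10 RNA lay only slightly lower. Cxcl9 had 219, 201, 218 and 228 counts with BAPTA-AM, and its level of 10.97 to 13.9 CPM lay below the 19.8 to 25.9 CPM of the WT zymosan libraries. Its log2 fold change was −0.88 (edgeR adjusted p = 1.09e-05, SE 0.10), a ratio of 0.543. Cxcl10 had 81379, 81097, 72523 and 87959 counts, at 4340 to 4608 CPM against 4968 to 5530 CPM. The 2 groups did not overlap here either, but the log2 fold change of −0.22 (SE 0.08) did not pass the threshold (edgeR adjusted p = 0.0655). So 1 of the 2 tested members was called, in a comparison that called 12.8% of all genes, 753 higher and 741 lower. Without untreated *Mcu*-/- replicate 4, which is in neither group but enters the shared estimate of the spread, Cxcl10 had the same log2 fold change of −0.22 with an SE of 0.03 and was called (edgeR adjusted p = 9.55e-08; 9.55e-08 to 0.162 over its alternatives), and the genes called rose from 1494 to 3712. With DESeq2's size factors it was −0.24 and called too (edgeR adjusted p = 0.0425). In exact two-sided permutation tests both chemokines reached the smallest p that 4 against 5 libraries allow (exact p = 0.0159).

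The chemokine response to zymosan was still large in the presence of BAPTA-AM. Compared with untreated WT macrophages, the ratio of summed and scaled Cxcl9 counts was 263 (exact 95% counting interval 102 to 968), and Cxcl10 rose by 10.00 on the log2 scale (edgeR adjusted p = 2.66e-21, SE 0.12). Both tested members were called (Cxcl9 with an edgeR adjusted p = 3.58e-16), where 66% of all genes were. The exact two-sided permutation p was 0.0286 for each gene, the smallest that 4 against 4 libraries allow. This comparison shares the untreated libraries with that of zymosan alone.

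Between genotypes, both chemokines were at their highest in *Mcu*-/- macrophages given zymosan. Cxcl9 had 657, 647 and 733 counts in these 3 libraries, or 38.7, 36.6 and 36.5 CPM, above each WT zymosan library. Its log2 fold change was 0.75 (edgeR adjusted p = 8.66e-06, SE 0.10), a ratio of 1.69. Cxcl10 had 100046, 105731 and 117842 counts, or 5890, 5975 and 5861 CPM, which again lay above each WT zymosan library. Its log2 fold change of 0.19 (SE 0.08) did not pass the threshold (edgeR adjusted p = 0.0594). The call on 1 of 2 tested members stands beside 62.1% of all genes called in this comparison, so a call was the more common outcome for a gene here. Without untreated *Mcu*-/- replicate 4 Cxcl10 was called at the same log2 fold change of 0.19 (edgeR adjusted p = 2.08e-06; 2.08e-06 to 0.133 over its alternatives). It was also called without WT zymosan replicate 4 (log2 fold change 0.21, edgeR adjusted p = 0.0494). The exact two-sided permutation p was 0.0357 for both genes, the smallest that 3 against 5 libraries allow.

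Untreated *Mcu*-/- macrophages held more Cxcl10 RNA than untreated WT macrophages. The counts were 253, 323, 305 and 340, or 9.35, 11.5, 11.1 and 13.5 CPM, against at most 4.77 CPM in WT. The log2 fold change was 1.38 (edgeR adjusted p = 2.14e-07, SE 0.10), a ratio of 2.61, and only 0.35% of all genes were called here, 15 higher and 26 lower, against 57 and 55 with DESeq2's Wald test and 5 and 21 without WT replicate 1. All 4 *Mcu*-/- libraries lay above all 4 WT libraries, and the exact two-sided permutation p was 0.0286, the smallest that 4 against 4 libraries allow. Without replicate 4 the log2 fold change was 1.30 (edgeR adjusted p = 9.12e-14, and 1.68e-40 to 0.0253 over the alternatives), while the genes called rose from 41 to 391. Without WT replicate 1 or 2 the genes called fell to 26 and 22. Cxcl9 had 2, 5, 2 and 2 counts against 1, 2, 1 and 0 in WT, a ratio of 2.25 with an exact 95% counting interval of 0.667 to 9.69. A difference in Cxcl9 was not detectable at this depth (edgeR adjusted p = 0.445; exact two-sided permutation p = 0.114).

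Within *Mcu*-/- macrophages zymosan raised both chemokines, by less for Cxcl10 than in WT. The ratio of summed and scaled Cxcl9 counts was 364 (exact 95% counting interval 203 to 731, edgeR adjusted p = 7.05e-18), and the log2 fold change of Cxcl10 was 9.02 (edgeR adjusted p = 6.01e-21, SE 0.12), where 73.8% of all genes were called. The 3 against 4 libraries allow no exact two-sided permutation p below 0.0571, the value that both genes reached. The difference between genotypes in the zymosan response was itself tested. It was −1.20 on the log2 scale for Cxcl10 (edgeR adjusted p = 1.66e-06, SE 0.13), with 35.2% of all genes called. It is the 0.19 between genotypes with zymosan less the 1.38 between them untreated. Without replicate 4 it was −1.11 (edgeR adjusted p = 2.81e-13), and the genes called rose from 4122 to 7039. For Cxcl9 the fitted difference of −0.32 was not called (edgeR adjusted p = 0.717), and it changed sign to 0.09 without untreated *Mcu*-/- replicate 2, the library with 5 counts.

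Genes were also examined in lists by role, and calls on them stand beside the shares of all genes given above, which were 69.1% with zymosan in WT, 66% with BAPTA-AM present, 12.8% for BAPTA-AM under zymosan, 62.1% and 0.35% between genotypes with zymosan and untreated, 73.8% with zymosan in *Mcu*-/- macrophages and 35.2% for the difference of responses. Without replicate 4 the same shares were 78.5, 75.9, 31.8, 70.1, 3.35, 81.5 and 60.3%, so counts on the lists without it stand beside these. In the CXCR3 axis the receptor fell with zymosan in WT, while *Sdc4* and *Pf4* rose. *Cxcr3*, the receptor of the 3 ligands, had 35 to 58 counts in WT untreated libraries (2.035 ± 0.288 CPM, SD, n = 4) and 11 to 19 in WT zymosan libraries (0.842 ± 0.228 CPM, SD, n = 5). It fell with zymosan in WT by 1.27 on the log2 scale (edgeR adjusted p = 9.50e-05, SE 0.24). In *Mcu*-/- macrophages its log2 fold change with zymosan was −0.50 (edgeR adjusted p = 0.104, SE 0.27), called without replicate 4 at −0.61 (edgeR adjusted p = 0.0352), and the difference between genotypes was not called (edgeR adjusted p = 0.104). Of the 6 genes listed, *Cxcr3*, *Pf4* and *Sdc4* passed the filter, while the scavenger receptors *Ackr1* and *Ackr3* and the peptidase *Dpp4*, which trims these chemokines, did not. *Ackr1* had 0 counts in each of the 20 libraries, with 3 counts corresponding to 0.107 to 0.191 CPM. *Sdc4*, a heparan sulphate proteoglycan of the cell surface, rose in WT by 6.53 on the log2 scale (edgeR adjusted p = 2.39e-16, SE 0.19), from 48.0 ± 4.15 CPM (SD, n = 4) to 4438 ± 168 CPM (SD, n = 5). Of the 3 tested genes, 2 rose and 1 fell with zymosan in WT, with a median log2 fold change of 0.26 against −0.04 over all genes. With BAPTA-AM present 1 rose and 1 fell against untreated (median −0.09 against −0.03). BAPTA-AM under zymosan lowered 2 of them, *Sdc4* by the larger amount (−0.53, edgeR adjusted p = 0.0168), with a median of −0.36 against 0.00 over all genes. With zymosan, *Pf4*, a CXC chemokine of platelets and macrophages, was higher in *Mcu*-/- than in WT libraries (log2 fold change 0.41, edgeR adjusted p = 9.90e-06), the only one of the 3 called, with a median of 0.35 against 0.02. Untreated, 0 of 3 were called between genotypes by edgeR, against 2 without replicate 4. Within *Mcu*-/- macrophages 2 rose with zymosan, *Sdc4* the most (5.98, edgeR adjusted p = 1.29e-15). Without replicate 4, 2 rose and 1 fell. The responses of 0 of 3 differed between genotypes by edgeR, against 1 upward and 1 downward without replicate 4.

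*Ifnb1*, which encodes the type I interferon made by macrophages, had the same order of group means as the chemokines. It had 1, 1, 2 and 1 counts in WT untreated and 1651, 2170, 2194, 1709 and 1856 counts in WT zymosan libraries. With BAPTA-AM it had 956, 783, 547 and 1065 counts, and in *Mcu*-/- macrophages 10, 6, 3 and 10 counts untreated and 6255, 6943 and 7404 with zymosan. The *Mcu*-/- zymosan libraries were thus the highest and the BAPTA-AM libraries the lowest of the 12 stimulated ones, with no overlap between the 3 groups. The ratio of summed and scaled counts with zymosan in WT was 1821 (exact 95% counting interval 780 to 5611). BAPTA-AM moved *Ifnb1* by −1.17 on the log2 scale (edgeR adjusted p = 9.26e-07, SE 0.11), and among zymosan libraries those of *Mcu*-/- macrophages exceeded WT by 1.87 (edgeR adjusted p = 3.05e-10, SE 0.11). *Ifng*, the type II interferon gene of T cells and natural killer cells, had 0 counts in 19 libraries and 1 count in the remaining one, from *Mcu*-/- zymosan. *Ifna4* was also filtered out, with 12 counts over the WT zymosan and 31 over the *Mcu*-/- zymosan libraries and 0 in the other groups. The list of interferons and their receptors also held *Il27*, a cytokine gene that is neither. Of its 6 tested genes, *Il27* included, 4 rose and 2 fell with zymosan in WT (median 0.25 against −0.04 over all genes), and 2 rose and 2 fell with BAPTA-AM present (median −0.01 against −0.03). *Ifngr1*, the ligand-binding chain of the interferon-γ receptor, fell the most in WT (−1.10, SE 0.06, edgeR adjusted p = 1.61e-12). BAPTA-AM under zymosan lowered 3 and raised 1, *Ifngr1* (0.59, edgeR adjusted p = 1.19e-06), with a median of −0.25 against 0.00, and lowered 4 without replicate 4. Between genotypes with zymosan, 4 were higher and 2 lower in *Mcu*-/- macrophages (median 0.74 against 0.02), with the largest fall in *Ifnar1*, a chain of the type I interferon receptor (−0.55, edgeR adjusted p = 4.02e-08). The zymosan responses of 4 of the 6 differed between genotypes, *Ifngr1* by 1.30 (edgeR adjusted p = 4.10e-09) and *Ifnar1* by −0.46 (edgeR adjusted p = 4.78e-05). In *Mcu*-/- macrophages 4 rose and 2 fell with zymosan, *Ifngr2*, the signalling chain, the most (−0.55, edgeR adjusted p = 1.23e-09). Untreated, 0 of 6 were called between genotypes by edgeR, with and without replicate 4.

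The list of genes that carry interferon signals also held genes that act upstream of interferon, such as *Ikbke*. Its members rose widely with zymosan. Of 17 tested, 15 rose and 1, *Irf3*, fell in WT, where 69.1% of all genes were called and 3790 of 11707 rose (median 1.51 against −0.04 over all genes), with *Socs1*, a feedback inhibitor of JAK kinases, highest (7.43, SE 0.09, edgeR adjusted p = 1.85e-21). The counts were again 15 and 1 with BAPTA-AM present (median 1.2 against −0.03) and in *Mcu*-/- macrophages (median 1.45 against −0.06), the last being 15 and 2 without replicate 4, with a median of 1.53. *Irf1*, a transcription factor that acts on the chemokine promoters, rose from 30.6 to 32.9 CPM untreated to 1294 to 1396 CPM in WT zymosan libraries (log2 fold change 5.39, SE 0.09, edgeR adjusted p = 1.57e-19). BAPTA-AM under zymosan lowered 4 of the 17, *Jak2* the most (−0.43, SE 0.04, edgeR adjusted p = 3.79e-07), with a median of −0.17, and 10 without replicate 4. *Irf1* (−0.21, edgeR adjusted p = 0.0655) was not among the 4, but was called without replicate 4 (edgeR adjusted p = 9.38e-09). Between genotypes with zymosan, 1 was higher and 6 were lower in *Mcu*-/- macrophages (median 0.02 against 0.02), or 5 and 6 without replicate 4, when *Irf7* rose the most. With it the rise was that of *Tyk2*, a JAK kinase (0.14, SE 0.05, edgeR adjusted p = 0.0312, up to 0.18 over its alternatives), and the largest fall that of *Ikbke*, a kinase upstream of IRF3 (−0.96, edgeR adjusted p = 3.33e-06). Untreated, 0 of 17 were called between genotypes by edgeR (median 0.05 against 0.02), against 2 higher and 1 lower without replicate 4, when the median was −0.02. For the 17 genes the responses (median difference −0.33 against −0.01) differed in 2 upward, *Tyk2* the most (0.30, edgeR adjusted p = 0.00477; *Irf7* without replicate 4, at 1.23 where it was −1.31 with it), and in 5 downward, *Ikbke* the most (−0.75, edgeR adjusted p = 0.00198). Without replicate 4 they differed in 3 upward and 5 downward, the median was −0.05, and *Tyk2* was no longer the most upward.

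All 8 NF-κB genes rose with zymosan in WT (median 2.46), with BAPTA-AM present (median 2.45) and in *Mcu*-/- macrophages (median 2.79), against medians of −0.04, −0.03 and −0.06 over all genes, of which 69.1, 66 and 73.8% were called. *Tnfaip3*, a ubiquitin-editing inhibitor of NF-κB, rose the most in each, by 5.94 in WT (edgeR adjusted p = 4.38e-11, SE 0.38). BAPTA-AM under zymosan lowered 3 of 8 (median −0.14), *Nfkbiz* the most (−0.35, edgeR adjusted p = 0.0258, up to 0.0833 over its alternatives), and without replicate 4 it lowered 5 and raised 1. With zymosan 4 were higher in *Mcu*-/- than in WT libraries, beside 62.1% of all genes called (median 0.22), *Nfkbia*, the inhibitor IκBα, the most (0.45, edgeR adjusted p = 0.000403), or 7 without replicate 4, beside 70.1%. The responses of 4 differed upward, *Nfkbiz* the most (0.50, edgeR adjusted p = 0.0161), or of 7 without replicate 4, when *Nfkbia* (0.56) stood above *Nfkbiz* (0.36). Untreated, 0 of 8 were called between genotypes by edgeR, against 1 without replicate 4.

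Of 12 other interferon-stimulated genes, all rose with zymosan in WT, with a median log2 fold change of 8.05, and *Gbp5*, a guanylate-binding GTPase, rose the most (9.47, SE 0.15, edgeR adjusted p = 7.97e-20). All 12 also rose with BAPTA-AM present (median 8.01) and in *Mcu*-/- macrophages, where the median was 6.71 with replicate 4 and 7.78 without it. BAPTA-AM under zymosan lowered 1, *Gbp2* (−0.38, edgeR adjusted p = 0.0125), with a median of −0.15. Without replicate 4 it lowered 8 and raised 1, and *Gbp2* was not the largest fall. With zymosan 1 was higher, *Ifit3* (1.31, edgeR adjusted p = 0.0399, up to 0.0788 over its alternatives), and 2 were lower in *Mcu*-/- macrophages, *Mx1* the most (−0.94, edgeR adjusted p = 0.00604), with a median of 0.02, or 5 and 5 without replicate 4, beside 70.1% of all genes called. In untreated cells 2 were higher in *Mcu*-/- libraries, *Ifit1* (1.09, edgeR adjusted p = 0.0252, up to 0.755 over its alternatives, of which 6 of 13 did not call it) and *Gbp5*, with a median of 1.34 against 0.02 over all genes. Without replicate 4, 8 of the 12 were higher and 0 lower untreated, the median was 0.49, and *Ifit1* was at 0.64 (edgeR adjusted p = 4.69e-11), below *Gbp5* at 0.81. Like Cxcl10, 6 of the 12 had a smaller response in *Mcu*-/- macrophages and 0 a larger one, *Mx1* with the largest gap (−1.90, edgeR adjusted p = 0.00130, or −1.30 without replicate 4). Without replicate 4 the counts were 8 and 1, and the median difference was −0.41 against −1.24 with it.

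Genes beside the cluster on chromosome 5 moved in both directions. Of 5 tested, 4 rose and 1 fell with zymosan in WT (median 1.13), 3 rose and 1 fell with BAPTA-AM present (median 1.15) and 3 rose and 1 fell in *Mcu*-/- macrophages (median 0.63). Without replicate 4 these last counts were 4 and 1 with BAPTA-AM present, and 4 and 1 in *Mcu*-/- macrophages (median 0.61). *Art3*, which overlaps Cxcl10, had 0, 1, 0 and 0 counts in WT untreated and 13, 15, 7, 19 and 9 counts in WT zymosan libraries, a ratio of 59.9 (exact 95% counting interval 10.4 to 2403, edgeR adjusted p = 4.14e-06). These few counts stand opposite 90881 to 100974 counts of Cxcl10, and their strand cannot be told apart here. *Scarb2*, a lysosomal receptor, fell the most in WT (−0.67, SE 0.08, edgeR adjusted p = 4.77e-07). Under zymosan BAPTA-AM moved 0 of 5 by edgeR (median −0.18), and 2 were lower without replicate 4. Between genotypes with zymosan 2 were higher and 2 lower, beside 62.1% of all genes called (median −0.32), *Scarb2* the most upward (0.86, edgeR adjusted p = 2.58e-07) and *Naaa*, an acid amidase, the most downward (−2.46, SE 0.34, edgeR adjusted p = 9.61e-06). *Naaa* was at 5.32 CPM in untreated *Mcu*-/- replicate 4, the lowest of that group, whose median was 26.1 CPM, and at 6.52 to 7.95 CPM in the *Mcu*-/- zymosan libraries. Untreated, 0 of 5 were called between genotypes by edgeR, with and without replicate 4. The zymosan responses of *Scarb2* and *Naaa* also differed the most between genotypes, by 0.75 (edgeR adjusted p = 0.000182) and −2.34 (edgeR adjusted p = 0.000639), with 2 of the 5 called in each direction, beside 35.2% of all genes. *Naaa* fell the most in *Mcu*-/- macrophages with zymosan (−1.56, edgeR adjusted p = 0.000485).

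The genes most like each chemokine were sought by Pearson's r of log2(CPM + 1) among 10577 genes whose mean reached 1 CPM. Over the 20 libraries Cxcl9 was most like *Cd14* (r = 0.998), the lipopolysaccharide co-receptor, then *Mxd1* (0.997), *Gtf2b* (0.997), *Ppm1k* (0.996) and *Il27* (0.996), a cytokine subunit. Cxcl10 was most like *Gbp5* (r = 0.999), *Ifit1* (0.998), *Tiparp* (0.997), *Ifi47* (0.997) and *Ccrl2* (0.997). The chemokines themselves had r = 0.979 with each other, and 251 genes were closer to Cxcl9 than Cxcl10 was. Over the 12 zymosan libraries their r was 0.985, with *Dse* (0.993), *Phf11b* (0.992) and *Sbds* (0.992) closest to Cxcl9. *Dnaja1* (0.990), an entry listed under the date-like symbol 5-Mar (0.989) and *Phf11b* (0.988) were closest to Cxcl10. These values describe a few groups of libraries and share the same libraries and scaling, so they are given without a test.

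Because Cxcl9 and Cxcl10 moved in the same order but by unequal amounts, the 300 bases around the annotated start of each gene, 250 before and 50 from it, are shown from the RefSeq table of GRCm38.p6, which matched 2 of the 3 members. Both are on the minus strand of the chromosome and are printed in the direction of the gene, with the motif matches in capitals.

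Cxcl9 chr5:92328030-92328329: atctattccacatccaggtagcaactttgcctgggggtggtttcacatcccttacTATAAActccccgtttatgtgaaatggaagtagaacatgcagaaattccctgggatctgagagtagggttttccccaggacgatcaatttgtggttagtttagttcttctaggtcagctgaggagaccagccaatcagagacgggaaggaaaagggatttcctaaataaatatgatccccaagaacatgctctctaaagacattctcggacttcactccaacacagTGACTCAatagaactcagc

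Cxcl10 chr5:92348840-92349139: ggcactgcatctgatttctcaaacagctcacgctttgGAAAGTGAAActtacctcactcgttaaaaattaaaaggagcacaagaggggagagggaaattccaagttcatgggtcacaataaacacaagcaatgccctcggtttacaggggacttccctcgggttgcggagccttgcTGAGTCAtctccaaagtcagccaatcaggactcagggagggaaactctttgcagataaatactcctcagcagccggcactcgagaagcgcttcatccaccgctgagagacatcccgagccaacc

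Both strands were searched for GAAA, 2 bases of any kind and GAAA (the core of the interferon-stimulated response element), GGG, 2 bases and TTTCC (one form of the NF-κB motif), TTC, 3 bases and GAA (the interferon-γ-activated site, GAS), TGA, 1 base and TCA (the AP-1 motif) and TATAAA (the TATA box). The Cxcl10 window held GAAAGTGAAA, a match to the interferon-stimulated core, at −213 to −204 from the start, and TGAGTCA, an AP-1 match, at −74 to −68. The Cxcl9 window held TATAAA at −195 to −190 from the start and TGACTCA, an AP-1 match, at bases 32 to 38 after it. No match overlapped another. Of 32851 promoter windows of this length, 3.44% held the interferon-stimulated core, 1.63% this NF-κB form, 8.30% the GAS element, 7.81% the AP-1 motif and 13.6% TATAAA. A match is a stretch of letters only, and the absence of one says only that these letters are not in this window. Other forms of the NF-κB motif were not searched, so whether either window holds an NF-κB site was not tested.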

How the data were processed

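RNA was measured in 20 libraries of BMDMs in 5 groups. The authors deposited 1 table of counts per gene, without normalization, which the methods of the study describe as adaptor removal with cutadapt, alignment to mm10 with STAR and counting with HTSeq; the submitters' processing notes name FastQC, MultiQC, STAR and DESeq2. Versions and the strand setting were not given in the sources used here. Columns were assigned to groups by their names. The *Mcu*-/- zymosan columns are numbered otherwise than their sample labels and serve as unnumbered replicates.

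Counts were filtered with filterByExpr, scaled with TMM and fitted with edgeR 4.0.16 in R 4.3.3 (glmQLFit and glmQLFTest, 1 coefficient per group, no covariate), and SE was taken as the absolute log2 fold change over the square root of F. DESeq2 1.42.0 served as an alternative. Exact permutation tests used scipy 1.17.1 in Python 3.11.15. The fits were tried on simulated counts with a common spread for all genes and no library set apart, unlike these data. Of 200 genes changed by 1 on the log2 scale, edgeR recovered 199 with their sign and made 6 false calls. DESeq2 recovered 198 and made 18 false calls. Total counts of 14.4 to 24.0 M put 3 counts at 0.107 to 0.191 CPM. Intervals and this limit cover counting error only. Labels name biological replicates but not whether these came from separate animals, so p-values measure the spread between these samples.

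The members and lists were chosen with earlier results of these data known. Named genes were the members, per list the largest rise and fall among called genes, *Ifnb1*, *Ifng*, *Irf1*, *Cxcr3* and *Art3*, and the most alike genes. Genes named for other reasons are *Mcu*, the cell type markers, listed genes that did not pass the filter and genes given only for their value without untreated *Mcu*-/- replicate 4. List medians did not move when genes at the detection limit were set at their ratio of summed counts. Alternatives were DESeq2's size factors, no filter beyond 1 count, DESeq2's Wald test, only the groups compared, the replicate number as a block, and leaving out in turn each library of the groups compared, and untreated *Mcu*-/- replicate 4 from every comparison.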

Additional observations from a re-analysis of the deposited data

Results flagged for a closer look

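In the 60 groups of 4 or 5 libraries examined for *Mcu*, the chemokines, the 4 named role genes with counts and the summed markers, 6 values, from 4 libraries, lay far from the rest of their group. The rule used is meant to mark about 1 in 20 independent groups by chance. That rate was not measured here, where the groups share libraries and some values rest on very few counts. The gap to the nearest library, as a share of the whole range, was 0.94 for Cxcl9 in untreated *Mcu*-/- replicate 2 (0.178 CPM, from 5 counts, against 0.073 to 0.0793). It was 1.0 for *Art3* in WT untreated replicate 2, where 1 count stood against 0. In untreated *Mcu*-/- replicate 4 it was 0.942 for the macrophage markers (8556 against 14420 to 14780 CPM), 0.959 for the fibroblast markers (25.3 against 0.621 to 1.64 CPM) and 0.923 for the endothelial markers (25.7 against 51.6 to 53.7 CPM), the last carried by *Pecam1* (17.3 against 48.9 to 51.2), while *Cdh5* (5.71 against 1.39 to 1.99) and *Vwf* (2.70 against 0.89 to 1.31) were higher there. It was 0.862 for the B cell markers in replicate 4 of WT zymosan with BAPTA-AM (1.52 against 2.67 to 2.86 CPM).

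The zymosan response differed between genotypes by the test of the difference itself in 15 of the named chemokines and list genes. Of all genes 35.2% were called in this test, or 60.3% without untreated *Mcu*-/- replicate 4. List genes were named largely as the called extremes of their lists, so this count is not a share of the lists. Further list genes called here are in the counts by list above. The log2 difference, *Mcu*-/- response less WT response, was −1.20 for Cxcl10, 1.305 for *Ifngr1*, −0.457 for *Ifnar1*, 0.303 for *Tyk2*, −0.751 for *Ikbke*, 0.50 for *Nfkbiz*, −1.897 for *Mx1*, 0.751 for *Scarb2* and −2.343 for *Naaa*. It was −1.357 for *Ifit1*, −1.051 for *Gbp2*, −0.926 for *Gbp5*, 0.393 for *Nfkbia*, −0.197 for *Ifngr2* and 0.193 for *Jak2*, which are named for other comparisons.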

How the results depend on the processing

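Of 201 values of the chemokines under the alternatives, 192 were in the same direction and on the same side of the threshold, 8 passed it where the value of the report did not, and 1 changed sign. For Cxcl10 under BAPTA-AM the 4 were DESeq2's size factors (−0.24), DESeq2's Wald test (−0.24), only the groups compared (−0.22) and leaving out untreated *Mcu*-/- replicate 4; leaving out 1 library gave −0.24 to −0.20. For Cxcl10 between genotypes with zymosan they were DESeq2's Wald test (0.19), only the groups compared (0.17) and 2 left-out libraries, the range over all of these being 0.17 to 0.21. The Cxcl9 difference of responses ran from −0.80 to 0.089. Cxcl9 had no value in the fit of the untreated groups alone, where it was filtered out.

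Genes called under BAPTA-AM were 1494, 3529 with only the groups compared and 1036 to 3712 leaving out 1 library; the higher calls were 753 of these 1494, 629 of 1515 with DESeq2's size factors and 668 of 1668 with DESeq2's Wald test. Between untreated genotypes they were 41, 112 with DESeq2's Wald test, 5 with only the groups compared and 22 to 391 leaving out 1 library. For the difference of responses they were 4122, and 3414 to 7039 leaving out 1 library. The cause was not tested. The median of all genes moved by less than 0.1 on the log2 scale under another scaling.

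Same-numbered libraries did not deviate together (correlations of −0.117 to 0.106), so the numbers were not taken as pairs. With the replicate number as a block, without the *Mcu*-/- zymosan libraries, 879 genes were called under BAPTA-AM and 22 between untreated genotypes; no chemokine call changed.

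Of 1144 values of the other genes tried, 1103 kept direction and side, 26 lost and 7 gained a call, and 8 changed sign, none of these called in the report. Beyond these, 17 values of listed genes changed sign without untreated *Mcu*-/- replicate 4, and 4 were then called, for the difference of responses *Irf7* (1.23), *Ifit3* (0.86) and *Tnfaip3* (0.32), and *Ikbke* (−0.13) for zymosan in *Mcu*-/- macrophages. *Cxcr3* under BAPTA-AM was −0.006 with DESeq2's size factors, −0.004 with its Wald test and −0.23 to 0.15 leaving out 1 library. Leaving out 1 library, *Art3* between genotypes with zymosan was −0.56 to 0.014, *Irf1* between untreated genotypes −0.004 to 0.17, and the difference of responses −0.05 to 0.12 for *Irf1*. With 0 to 5 counts per untreated library, depth limits statements on untreated Cxcl9.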
